A study of Mus musculus with 16 samples.

Results

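The 7 genes Fbxo34, Ptp4a1, Wdr37, Mbtd1, Ttll12, Kmt5a and Znrf1 were followed through the 16 libraries of iWAT, the inguinal depot of white fat that lies under the skin of the groin. They were matched by symbol among the 54752 gene IDs of the count table and gave 8 IDs, because Ptp4a1 is annotated under 2 overlapping IDs, which are kept apart below. The genes were chosen by their measured differences between genotypes in earlier results of the same counts, mostly because another tool or the removal of 1 library had called them. Values from the contrasts that singled them out are therefore given as a description. For Fbxo34, Ptp4a1, Wdr37 and Ttll12 this was SOD1G93A-Lepob/+ against SOD1G93A, and for Mbtd1, Kmt5a and Znrf1 it was SOD1G93A against WT. Some of the genes were also called in other comparisons of the same 16 libraries. A contrast that shares no library with the one named here is therefore not always free of the choice. The question asked of each gene was whether its level moved by degrees from library to library or took low and high values with little in between.

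Each of the 4 genotypes had 4 libraries of whole-tissue RNA from mice of 90 days, labelled as females of the C57BL/6 strain. WT mice carried neither mutation. Lepob/+ mice had 1 copy of the ob allele, a loss-of-function allele of leptin, the hormone that fat cells release in proportion to their stores. SOD1G93A mice carried a high-copy transgene of the human superoxide dismutase mutant, which drives motor neuron degeneration and is a model of amyotrophic lateral sclerosis. SOD1G93A-Lepob/+ mice, from a cross of Lepob/+ mothers and SOD1G93A fathers, carried both. The libraries held between 36795376 and 61886313 counts. The transcript of Lep itself lay at 202 to 681 CPM (counts scaled to a common library size) in WT, 181 to 687 CPM in Lepob/+, 243 to 993 CPM in SOD1G93A and 549 to 1840 CPM in SOD1G93A-Lepob/+, and as the ob allele is a base change within the gene this level does not check the genotype.

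A pair of libraries stood apart and are marked in what follows. The library labelled SOD1G93A-Lepob/+ replicate 3 had 0 counts of Xist and 1756 counts of Y-linked genes, which goes against its label as a female, while the other 15 libraries had 11895 or more counts of Xist and none of Y-linked genes. Lepob/+ replicate 4 held 186000 summed CPM of 11 skeletal muscle genes and had the lowest scaling factor (0.664 by TMM, the trimmed mean of M-values). Mature adipocyte genes were present in every library, with 12 of 12 tested and 18000 to 40900 summed CPM. The 12 T cell genes summed to 11.8 to 24.7 CPM in SOD1G93A-Lepob/+, 18.6 to 986 CPM in WT, 15.6 to 1110 CPM in Lepob/+ and 15.4 to 1490 CPM in SOD1G93A, so each genotype had a library this low. In SOD1G93A this was replicate 3 only, and replicates 1, 2 and 4 were at 958, 1490 and 871 CPM. The T cell sum thus differed between all libraries with both mutations and most of those of SOD1G93A. In whole tissue, fewer cells of a type and less RNA per cell cannot be told apart.

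The genes belong to different parts of cell biology. Fbxo34 encodes an F-box protein, the kind of subunit that picks the substrates of SCF ubiquitin ligases, and Znrf1 encodes a membrane-associated RING finger ubiquitin ligase studied mostly in nerve cells. Ptp4a1 encodes a small membrane-anchored phosphatase of the PRL family that binds CNNM magnesium transporters. Wdr37 encodes a WD-repeat protein that pairs with PACS trafficking proteins. Mbtd1 is a reader of methylated histones within the NuA4/TIP60 acetyltransferase complex. Kmt5a is the methyltransferase that places the first methyl group on lysine 20 of histone H4 during the cell cycle. Ttll12 is an atypical member of the tubulin tyrosine ligase-like family. None of them is a classical adipose marker.

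Every library held counts of every gene. The lowest was 98 counts, for Fbxo34 in SOD1G93A-Lepob/+ replicate 4, so no gene was off in the sense of 0 counts. To describe steps, the 16 libraries were put in order of log2 CPM (with a prior count of 1) and the largest difference between neighbours was taken, with at least 2 libraries on each side. A gap of 1, a 2-fold step, was passed by 1 of the 8 IDs, the first ID of Ptp4a1, with a gap of 1.74 (3.33-fold). Among all 19736 tested genes 10.5% had such a gap, and 4.55% of the 10825 genes with a mean of at least 10 CPM. Just below the limit lay Znrf1 with 0.946, Fbxo34 with 0.945 and Mbtd1 with 0.925. Further below were Ttll12 with 0.740, Wdr37 with 0.737, the second ID of Ptp4a1 with 0.720 and Kmt5a with 0.535. The median of all tested genes was 0.253.

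**Figure D1:**
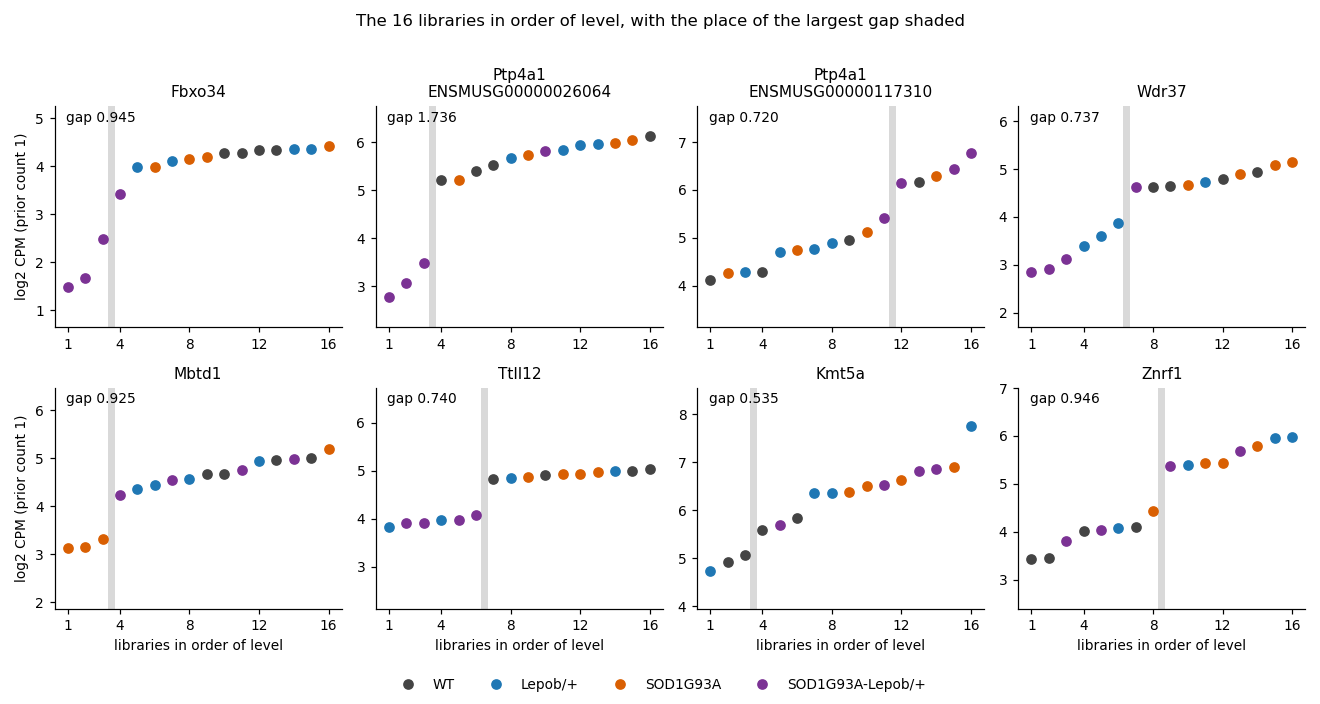
The 16 libraries in order of log2 CPM (prior count 1) for each of the 8 IDs, coloured by genotype, with the place of the largest gap shaded and its size printed. Ttll12 runs as a pair of flat levels of 6 and 10 libraries, Mbtd1 has 3 low SOD1G93A libraries, and Kmt5a climbs with no gap above 0.535 where at least 2 libraries lie on each side. Its top library alone, Lepob/+ replicate 4, lies 0.851 above the next.

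**Figure D2:**
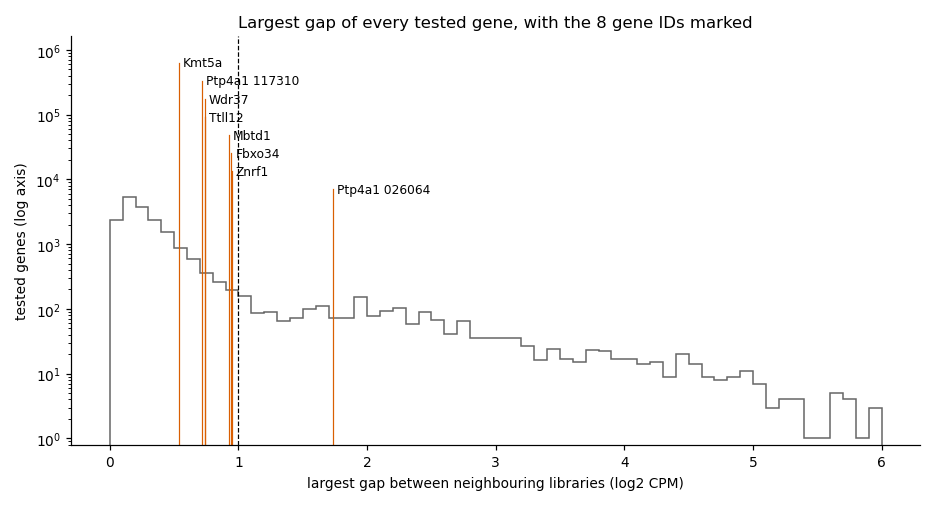
Number of tested genes (log axis) by the largest gap between neighbouring libraries, in bins of 0.1 log2 CPM, with the 8 IDs marked and a dashed line at 1. Only the first ID of Ptp4a1 lies beyond the line, at 1.74.

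A wide step matters more when the libraries on either side lie close together, so the gap was also divided by the range of the wider side. Ttll12 had the highest ratio of the 8 IDs at 2.90, which 0.497% of all tested genes reached. The first ID of Ptp4a1 had 1.91, reached by 1.23% of genes. The other 6 IDs had ratios below 1, from 0.247 for Kmt5a to 0.962 for Mbtd1, and 4.49% of all tested genes exceeded 1. By this description Ttll12 and the first ID of Ptp4a1 took separate levels, and Kmt5a was graded. For Ttll12 and Kmt5a this rests on the scaling and the rule. By library total alone the ratio of Ttll12 was 0.693 (reached by 9.39% of genes, with a gap of 0.386), that of Wdr37 1.38 (2.42%), that of the first ID of Ptp4a1 2.3 (0.841%) and that of Kmt5a 0.547. With 1 library allowed on a side, the gap of Kmt5a was 0.851. The ratio and its alternatives were added after the values had been seen.

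**Figure D3:**
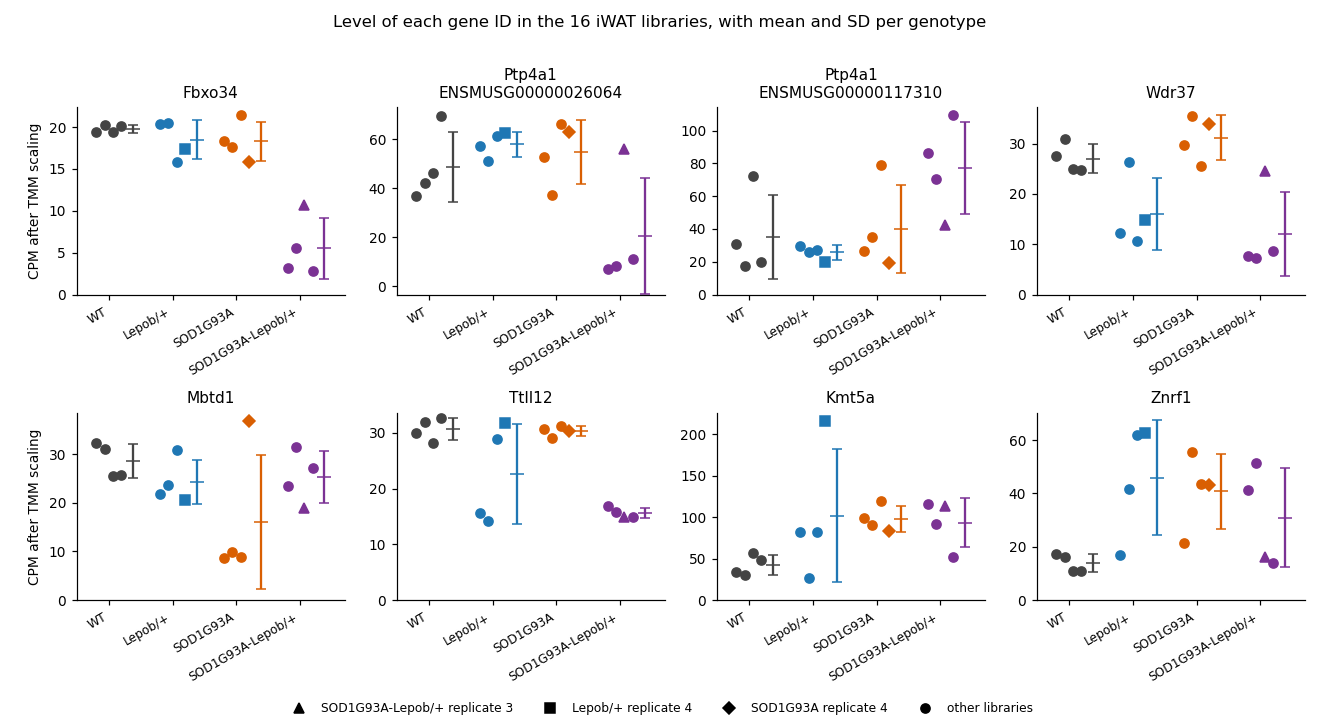
CPM after TMM scaling of each of the 8 IDs in the 16 libraries, by genotype, with the mean and SD (n = 4) beside the points. Triangles mark SOD1G93A-Lepob/+ replicate 3, squares Lepob/+ replicate 4 and diamonds SOD1G93A replicate 4. Fbxo34 is low in all SOD1G93A-Lepob/+ libraries, while the triangle is the high point of that genotype for the first ID of Ptp4a1 and for Wdr37.

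Fbxo34 (ENSMUSG00000037536, GRCm38 chromosome 14, 47450421 to 47531962, plus strand, protein coding) was the most even of the genes outside SOD1G93A-Lepob/+. WT libraries lay at 19.4, 20.3, 19.4 and 20.2 CPM, Lepob/+ libraries at 20.4, 20.5, 15.8 and 17.4 CPM, and SOD1G93A libraries at 18.4, 17.7, 21.4 and 15.8 CPM. SOD1G93A-Lepob/+ libraries held 3.17, 5.55, 10.7 and 2.75 CPM. All 4 libraries with both mutations were below the other 12, and replicate 3 stood between the other three of its genotype and the rest. By library total alone Lepob/+ replicate 4 was at 11.5 CPM, nearer to the libraries with both mutations, and there was still no overlap. The mean was 5.54 ± 3.65 CPM (SD, n = 4) with both mutations against 18.3 ± 2.33 CPM in SOD1G93A, a log2 fold change of -1.72 (SE 0.33). Without replicate 3 it was -2.26 (SE 0.22). Genotype accounted for 82.0% of the variance of its log2 CPM, more than for any other of the 19736 genes, where the median was 20.4%. Since the gene was picked for this contrast, that share is a description. In the contrast that shares no library with it, Lepob/+ against WT, the log2 fold change was -0.10 (SE 0.32, edgeR adjusted p = 0.9997). Some fits also called Fbxo34 in mice with both mutations against Lepob/+ and against WT. The libraries of Lepob/+ and WT were therefore not free of the choice. The 250 bases upstream of its RefSeq start (chr14:47472311-47472560, plus strand, GRCm38.p6) are shown because the drop was seen in every library with both mutations, with capitals marking the motifs found:

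Fbxo34: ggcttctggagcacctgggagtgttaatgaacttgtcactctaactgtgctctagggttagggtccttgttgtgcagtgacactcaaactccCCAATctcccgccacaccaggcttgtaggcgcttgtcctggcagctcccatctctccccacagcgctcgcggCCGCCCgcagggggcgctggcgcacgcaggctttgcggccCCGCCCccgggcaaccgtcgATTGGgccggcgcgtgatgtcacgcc

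This stretch lies within the annotated span of the gene, before a RefSeq start inside that span, and overlaps no annotated exon of the gene. From which start the counted fragments came was not tested. The stretch is 64.8% G and C. It holds 2 GC boxes (GGGCGG on either strand, in 32.7% of 32851 RefSeq promoters) and 2 CCAAT boxes (CCAAT on either strand, in 33.8%), and no TATA box (TATAAA on either strand, in 12.4%). These are matches of letters and say nothing of which factors bind there.

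Znrf1 (ENSMUSG00000033545, chromosome 8, 111536097 to 111626030, plus strand) was low in all WT libraries, at 17.2, 16.1, 11 and 10.7 CPM. In SOD1G93A it was at 21.5, 55.5, 43.4 and 43.1 CPM, above WT in 4 of 4 libraries. In Lepob/+ it was at 16.9, 41.8, 62.0 and 62.8 CPM, and with both mutations at 41.5, 51.6, 16.3 and 14.0 CPM. The mutant genotypes thus each held low and high libraries. The largest gap split the 16 libraries into 8 at 10.7 to 21.5 CPM and 8 at 41.5 to 62.8 CPM, and the low side held all 4 WT, 1 Lepob/+, 1 SOD1G93A and 2 SOD1G93A-Lepob/+ libraries. In SOD1G93A against WT the log2 fold change was 1.57 (SE 0.47). In the contrast that shares no library with that, SOD1G93A-Lepob/+ against Lepob/+, it was -0.57 (SE 0.46, edgeR adjusted p = 0.747). Exons of Znrf1 share 2246 bases with Ldhd on the opposite strand, and the strand setting of the counting is not given in the sources used here. Ldhd had a log2 fold change of -0.33 (SE 0.25) in SOD1G93A against WT and a largest gap of 0.155. Whether fragments over the shared bases entered the counts of Znrf1 was not tested.

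Ptp4a1 was counted under ENSMUSG00000026064 (chromosome 1, 30940302 to 30949309) and ENSMUSG00000117310 (chromosome 1, 30940302 to 30949770), both protein coding and on the minus strand. They share 3923 exonic bases. The first ID has 1618 bases of its own, among them a first exon of 313 bases (30948997 to 30949309), and the second has only a first exon of 222 bases (30949549 to 30949770) of its own. How fragments in the shared exons were assigned is not given in the sources used here.

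The first ID stepped down in the SOD1G93A-Lepob/+ libraries except replicate 3. WT libraries were at 37.0, 42.1, 46.1 and 69.6 CPM, Lepob/+ libraries at 57.3, 51.2, 61.4 and 62.5 CPM, and SOD1G93A libraries at 52.9, 37.3, 66.4 and 62.9 CPM. With both mutations they were at 6.82, 8.32, 56.1 and 11.1 CPM. Replicate 3 fell among the other genotypes, so the groups overlapped, and the genotype mean of 20.6 ± 23.7 CPM (SD, n = 4) describes none of its libraries. The log2 fold change against SOD1G93A was -1.41 (SE 0.54) with all libraries and -2.65 (SE 0.27) without replicate 3. In Lepob/+ against WT it was 0.25 (SE 0.53, edgeR adjusted p = 0.9997).

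The second ID went the other way in the same libraries. With both mutations it was at 86.4, 70.3, 42.7 and 109 CPM, against 29.8, 26.0, 27.1 and 19.6 CPM in Lepob/+. WT libraries were at 30.9, 17.3, 72.2 and 19.6 CPM, and SOD1G93A libraries at 26.8, 35.0, 78.9 and 19.3 CPM. All 4 libraries with both mutations were above all 4 of Lepob/+, and WT replicate 3 and SOD1G93A replicate 3 reached the same heights. Its log2 fold change was 1.59 (SE 0.49) against Lepob/+ and 0.95 (SE 0.48) against SOD1G93A.

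Summed over both IDs, Ptp4a1 had no gap of 1. The sum ran from 59.4 CPM in WT replicate 2 to 145 CPM in SOD1G93A replicate 3, and libraries with both mutations had 93.2, 78.6, 98.8 and 120 CPM. For the sum, the log2 fold change was 0.04 (SE 0.24) against SOD1G93A and 0.22 (SE 0.24) against Lepob/+ (edgeR adjusted p = 0.944 and 0.799). What differed was the split: the second ID took 92.7%, 89.4% and 90.8% of the counts in SOD1G93A-Lepob/+ replicates 1, 2 and 4, and 43.2% in replicate 3. The 95% Wilson intervals of these 4 shares were 91.9% to 93.4%, 88.3% to 90.4%, 89.9% to 91.6% and 41.7% to 44.7%, which cover counting error only. In the 12 libraries of the other genotypes its share ran from 21.9% to 61.0%. Reads over the separate first exons were not analysed here.

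**Figure D4:**
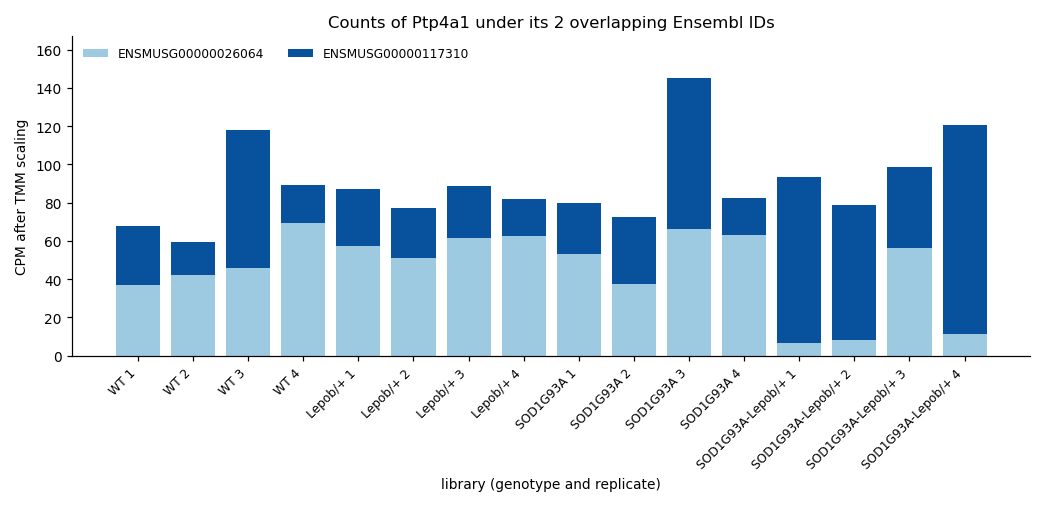
CPM of Ptp4a1 under its 2 Ensembl IDs, stacked for each of the 16 libraries. In SOD1G93A-Lepob/+ replicates 1, 2 and 4 nearly the whole bar belongs to the second ID, while the height of the bars stays within the range of the other libraries.

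The only RefSeq start of Ptp4a1 in the table used lies in the first exon of the second ID. The 250 bases before it (chr1:30949756-30950005, minus strand, GRCm38.p6), of which 15 lie in that annotated exon, are shown because they precede the ID that was high in those libraries, again with motifs in capitals:

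Ptp4a1: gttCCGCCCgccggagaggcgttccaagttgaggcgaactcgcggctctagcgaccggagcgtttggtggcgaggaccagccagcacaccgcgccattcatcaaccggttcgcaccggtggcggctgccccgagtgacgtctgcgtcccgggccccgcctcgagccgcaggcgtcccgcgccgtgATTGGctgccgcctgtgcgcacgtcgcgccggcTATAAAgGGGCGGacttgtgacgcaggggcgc

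They are 71.2% G and C and hold 2 GC boxes, 1 CCAAT box and 1 TATA box, searched as for Fbxo34. The TATA box and a GC box lie side by side near the start.

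Wdr37 (ENSMUSG00000021147, chromosome 13, 8802968 to 8871909, minus strand) was low in libraries of both genotypes that carry the ob allele. WT libraries were at 27.6, 30.8, 25.0 and 24.7 CPM and SOD1G93A libraries at 29.7, 35.5, 25.5 and 33.9 CPM. Lepob/+ libraries were at 12.1, 26.4, 10.6 and 14.8 CPM. SOD1G93A-Lepob/+ libraries were at 7.57, 7.25, 24.6 and 8.71 CPM. Within each ob genotype 3 libraries were low and 1 was at the level of WT, which was Lepob/+ replicate 2 and SOD1G93A-Lepob/+ replicate 3. The 6 low libraries ran from 7.25 to 14.8 CPM and the other 10 from 24.6 to 35.5 CPM. The log2 fold change was -1.37 (SE 0.38) in SOD1G93A-Lepob/+ against SOD1G93A, and -1.99 (SE 0.27) without replicate 3. Lepob/+ against WT uses none of those libraries, and the log2 fold change there was -0.76 (SE 0.37, edgeR adjusted p = 0.9997), lower in 3 of 4 libraries and not past the threshold.

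Mbtd1 (ENSMUSG00000059474, chromosome 11, 93885852 to 93946985, plus strand) was low in 3 of the 4 SOD1G93A libraries. These were at 8.74, 9.94 and 8.91 CPM, and replicate 4 was at 36.8 CPM, the highest of all 16. WT libraries were at 32.3, 31.0, 25.4 and 25.6 CPM, Lepob/+ libraries at 21.8, 23.7, 30.8 and 20.7 CPM, and libraries with both mutations at 23.5, 31.5, 18.9 and 27.2 CPM. The 3 low libraries agreed to within 0.185 on the log2 scale and were separated from the next library by 0.925. By library total alone the largest gap of Mbtd1 was 0.446, and Lepob/+ replicate 4 was at 13.7 CPM. In SOD1G93A against WT the log2 fold change was -0.83 (SE 0.39) with all libraries and -1.65 (SE 0.20) without replicate 4. In SOD1G93A-Lepob/+ against Lepob/+, which shares no library with that contrast, it was 0.06 (SE 0.39, edgeR adjusted p = 0.969). The gene Utp18, 86 bases away on chromosome 11, had a log2 fold change of 0.23 (SE 0.16) in SOD1G93A against WT and a largest gap of 0.117.

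Kmt5a (ENSMUSG00000049327, chromosome 5, 124439930 to 124462308, plus strand) varied by degrees through the 16 libraries. WT libraries were at 33.3, 30.4, 57.0 and 48.2 CPM and SOD1G93A libraries at 99.0, 90.2, 119.9 and 83.7 CPM, above WT in 4 of 4. Lepob/+ libraries were at 82.5, 26.7, 82.1 and 216 CPM, which covers both the lowest and the highest value of the series. The highest was Lepob/+ replicate 4, the library with the muscle transcripts, and by library total alone it was at 143 CPM. Libraries with both mutations were at 116, 92.1, 113.6 and 51.7 CPM. The log2 fold change in SOD1G93A against WT was 1.22 (SE 0.46), and in SOD1G93A-Lepob/+ against Lepob/+ it was -0.12 (SE 0.45, edgeR adjusted p = 0.941).

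Ttll12 (ENSMUSG00000016757, chromosome 15, 83575090 to 83595157, minus strand) had the most closely grouped levels after TMM scaling. The libraries with both mutations were at 16.9, 15.7, 14.99 and 14.9 CPM, and Lepob/+ replicates 1 and 2 at 15.6 and 14.2 CPM. Lepob/+ replicates 3 and 4 were at 29.0 and 31.7 CPM, within the span of WT (30.0, 32.0, 28.2 and 32.6 CPM) and SOD1G93A (30.8, 29.2, 31.3 and 30.4 CPM). The low 6 libraries spanned 0.255 and the high 10 spanned 0.209 on the log2 scale, with a step of 0.740 between them. SOD1G93A-Lepob/+ replicate 3 was low here like the rest of its genotype. The place of Lepob/+ replicate 4 rests on the scaling, since by library total alone it was at 21.0 CPM, between both levels. Without that library the step was 0.740 as well. The log2 fold change in SOD1G93A-Lepob/+ against SOD1G93A was -0.96 (SE 0.21). In Lepob/+ against WT it was -0.44 (SE 0.21, edgeR adjusted p = 0.9997), with 2 libraries low and 2 at the WT level.

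Low libraries were shared between some genes and not others. SOD1G93A-Lepob/+ replicates 1, 2 and 4 formed the whole low side of Fbxo34 and of the first ID of Ptp4a1. They were also on the low side of Wdr37 and Ttll12, and on the high side of the second ID of Ptp4a1. Besides the first ID of Ptp4a1, a gap of at least 1 at this same split was found only for Gm8752 and Gm8750, both at most 0.387 CPM in every library. The low sides of Wdr37 and Ttll12 shared Lepob/+ replicate 1 but differed in the other Lepob/+ libraries. Fbxo34, Ptp4a1, Wdr37 and Ttll12 were all chosen by SOD1G93A-Lepob/+ against SOD1G93A. That their low sides share SOD1G93A-Lepob/+ libraries follows in part from this choice. None of the 10 cell type marker lists had summed levels that separated the low from the high libraries of any of the 8 IDs. For Fbxo34, the low libraries held 18.4 to 24.7 summed CPM of T cell genes and the others 11.8 to 1490 CPM. The list that came nearest for Fbxo34 was mammary and glandular epithelium, with 1030 to 1460 CPM in the low and 360 to 1080 CPM in the other libraries, and its part in the result was not tested. T cell genes summed to 11.8 to 24.7 CPM in the low libraries of Ttll12 and to 15.4 to 1490 CPM in the high ones. For Ttll12, skeletal muscle genes summed to 37.0 to 212 CPM in the low libraries and to 22.5 to 186000 CPM in the others.

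With edgeR's quasi-likelihood test over all 16 libraries, 0 of the 8 IDs and 0 of the 19736 genes (0%) had an adjusted p under 0.05 in any comparison. At an unadjusted p under 0.05 there were 2 IDs in Lepob/+ against WT, 2 in SOD1G93A against WT, 4 in SOD1G93A-Lepob/+ against SOD1G93A, 4 against Lepob/+ and 7 against WT, and all genes had this at 4.37%, 2.56%, 16.5%, 8.24% and 4.74%. The interaction of both mutations had 3 IDs and 7.98% of all genes at that level. DESeq2 on all 16 libraries called 3 IDs in SOD1G93A-Lepob/+ against SOD1G93A (Fbxo34, Wdr37 and Ttll12, against 2.85% of all genes), 1 against Lepob/+ (0.232%) and 2 against WT (0.143%). It called none in Lepob/+ against WT (0.00325%) or in SOD1G93A against WT (0.00976%). Every ID that passed a limit in this paragraph or the next shares libraries with the contrast that singled it out. These counts follow in part from that choice and are a description.

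Restricted to the 8 libraries of the compared genotypes, DESeq2 called Kmt5a and Znrf1 in SOD1G93A against WT (0.0626% of all genes) and none in Lepob/+ against WT (0.0174%). For mice with both mutations it called Fbxo34, Wdr37 and Ttll12 against SOD1G93A (7.95%), Fbxo34, Ttll12 and Kmt5a against WT (1.6%), and Fbxo34 and the second ID of Ptp4a1 against Lepob/+ (0.176%). edgeR on those libraries called Ttll12 against SOD1G93A (0.0108%) and against WT (0.0109%). With limma voom, which gives libraries quality weights, 5 IDs (all but Mbtd1, Kmt5a and Znrf1) passed against SOD1G93A, where 31.7% of all genes did, Fbxo34 alone against Lepob/+ (0.0101%), and Fbxo34 and Ttll12 against WT (0.0101%).

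Fits that left out the library that stood apart gave other counts. Without SOD1G93A-Lepob/+ replicate 3, edgeR called 3 genes against SOD1G93A (0.0149% of 20097), and these were Fbxo34, the first ID of Ptp4a1 and Wdr37. It called Fbxo34 and the first ID of Ptp4a1 against Lepob/+ and against WT (0.00995% each) and for the interaction. Without SOD1G93A replicate 4, it called Mbtd1 in SOD1G93A against WT (0.00498% of 20070). Without Lepob/+ replicate 4 and SOD1G93A-Lepob/+ replicate 3, it called 2 IDs in each comparison of mice with both mutations (0.01% of 20010 genes each). These calls are how the genes were found and add no support to them.

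Whether the libraries of a pair of genotypes overlapped was counted for each ID. In Lepob/+ against WT all 8 IDs overlapped, where 0.907% of all genes did not. In SOD1G93A against WT, Kmt5a and Znrf1 were higher with no overlap (2.05% of all genes). In SOD1G93A-Lepob/+, Fbxo34, Wdr37 and Ttll12 were lower with no overlap than in SOD1G93A (7.18%) and than in WT (3.64%). Against Lepob/+ the 2 that did not overlap were Fbxo34, lower, and the second ID of Ptp4a1, higher (2.35%). For Wdr37 the lack of overlap rested on small margins. SOD1G93A-Lepob/+ replicate 3 was at 24.6 CPM, WT replicate 4 at 24.67 CPM and SOD1G93A replicate 3 at 25.5 CPM. By library total alone Wdr37 overlapped with SOD1G93A. Comparisons with the same control libraries share their error and are set side by side only. Every ID without overlap shares libraries with the contrast that singled it out, so these counts are a description.

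**Figure D5:**
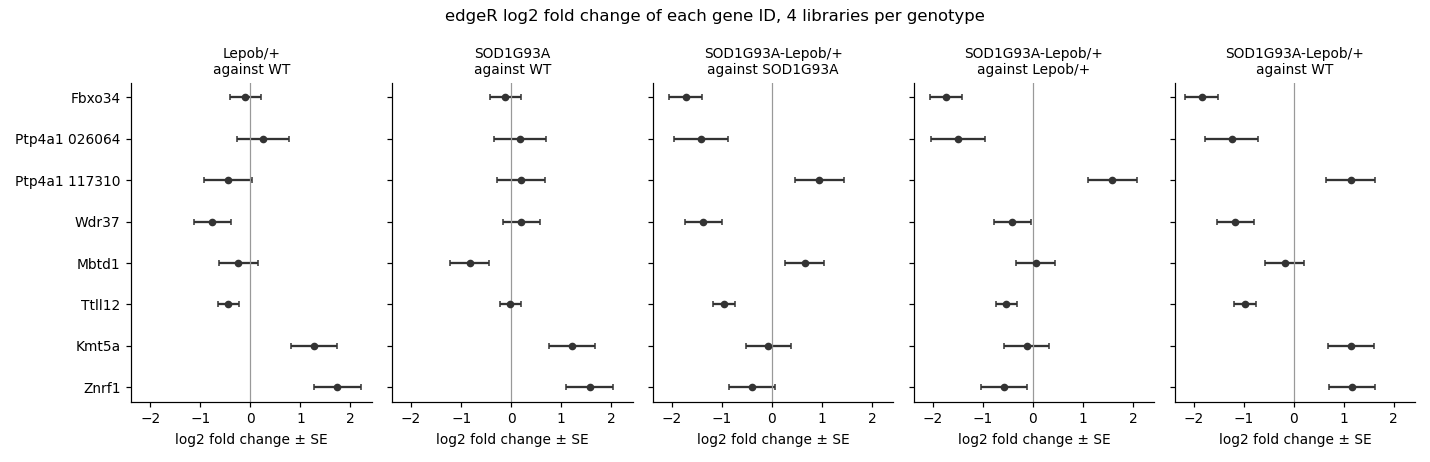
edgeR log2 fold change with its SE for each of the 8 IDs in the 5 comparisons of genotypes (4 libraries each). Fbxo34 lies near 0 in both single mutants and at -1.72 to -1.84 in the 3 comparisons of mice with both mutations, and the 2 IDs of Ptp4a1 point in opposite directions there.

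The interaction asks whether both mutations together differed from the sum of each. It contains both contrasts that singled out the genes, so its values follow in part from that choice and are a description. Its log2 value was -1.63 (SE 0.45) for Fbxo34, -1.67 (SE 0.75) for the first and 1.40 (SE 0.68) for the second ID of Ptp4a1, and -2.14 (SE 0.66) for Znrf1. For Kmt5a it was -1.34 (SE 0.65), and for Wdr37, Ttll12 and Mbtd1 it was -0.61 (SE 0.52), -0.52 (SE 0.30) and 0.89 (SE 0.55). None passed the threshold by edgeR, the lowest adjusted p being 0.564.

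Partners and relatives of the genes did not pass the edgeR threshold in the comparison of their gene. In SOD1G93A-Lepob/+ against SOD1G93A, 8 of 10 tested SCF core and F-box genes lay above 0 and 2 below, the median being 0.08 on the log2 scale against 5e-04 for all genes. Fbxo46 (-0.33, SE 0.18), an F-box relative, and Fbxo21 (0.30, SE 0.30) had the smallest p. Of 6 tested genes in the list of PRL and CNNM genes, which also held Trpm7, 2 were higher and 4 lower (median -0.11). The closest to the threshold were the transporter Cnnm3 (0.28, SE 0.13) and the phosphatase Ptp4a3 (-1.25, SE 0.69). The PACS genes that pair with Wdr37 were at -0.40 (SE 0.15) for Pacs1 and 0.17 (SE 0.19) for Pacs2. Of 10 tested tubulin tyrosine ligase genes 6 were higher and 4 lower (median 0.09), led by Ttl (0.37, SE 0.20) and Ttll1 (0.28, SE 0.18).

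The chromatin and ligase lists were read in SOD1G93A against WT, where all genes had a median of 0.02 and 53.0% were higher. Of the 17 NuA4/TIP60 genes 14 were higher and 3 lower (median 0.07), and Epc1 (0.30, SE 0.15) and Epc2 (0.26, SE 0.14), scaffold subunits of the complex, had the smallest p. Of 7 tested MBT domain genes 5 were higher and 2 lower (median 0.15), led by Sfmbt2 (0.75, SE 0.72) and L3mbtl3 (0.18, SE 0.18). Of 9 tested genes of histone H4 lysine 20 methylation and Kmt5a turnover 8 were higher and 1 lower (median 0.17). The methyltransferase Kmt5b was at 0.64 (SE 0.26) and Pcna, the clamp through which Kmt5a is marked for breakdown, at 0.29 (SE 0.17). Of 4 tested zinc and RING finger relatives of Znrf1 3 were higher, with Znrf3 at 0.50 (SE 0.31) and Znrf2 at 0.13 (SE 0.10). None of these genes was called, and the smallest edgeR adjusted p in the lists was 0.9985.

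None of the tested neighbours on the chromosome had a gap of 1, the widest being 0.719 for Scube1 beside Ttll12, a gene of at most 2.43 CPM. Atg14, 8931 bases beyond Fbxo34, had a largest gap of 0.0600 and a log2 fold change of -0.03 (SE 0.11) in SOD1G93A-Lepob/+ against SOD1G93A, while Dlgap5 on the other side was at -1.41 (SE 0.64) with at most 5.24 CPM. Phf3, next to Ptp4a1, was at -0.18 (SE 0.10), Idi1, next to Wdr37, at -0.30 (SE 0.27), and Tspo, 887 bases from Ttll12, at 0.23 (SE 0.23), with largest gaps of 0.134, 0.273 and 0.206. In SOD1G93A against WT, Rilpl2, 957 bases from Kmt5a, was at -0.21 (SE 0.13), and Sbno1, its neighbour on the other side, at 0.02 (SE 0.45) with a gap of 0.640. Wdr59 and Zfp1 on either side of Znrf1 were at 0.13 (SE 0.16) and 0.31 (SE 0.21).

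The genes most alike in pattern over the 16 libraries, by Pearson's r of log2 CPM, are given as a description, since all of them share libraries, depth and scaling. Fbxo34 and the first ID of Ptp4a1 were each other's closest gene (r = 0.898), while their rank correlation was 0.438, so the likeness lay in the low libraries. After it the first ID of Ptp4a1 was most like Cenpx (0.870), a centromere protein gene, and its second ID was most like Garnl3 (0.853), Gtf2h1 (0.844) and Zbtb7b (0.841). For Ttll12 these were Sdhaf1 (0.852), an assembly factor of succinate dehydrogenase, and Tmem268 (0.831). For Kmt5a they were Zfp623 (0.837), Mark3 (0.834) and Irak1 (0.830), for Mbtd1 Bnipl (0.812), Slc5a5 (0.807) and Dkkl1 (0.779), for Wdr37 Gm48583 (0.785), and for Znrf1 Gm24452 (0.753).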

How the data were processed

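The authors deposited raw counts per gene for 16 libraries of iWAT. Per the labels and methods, reads were trimmed with fastp, aligned to mm10 with HISAT2 2.1.0 and counted with featureCounts 2.0.2, using uniquely mapped reads. Strand setting, annotation release and the treatment of fragments within overlapping genes are not given in the sources used here, and library kits are named differently by labels and methods. Of 54752 IDs, 54723 had a symbol in GENCODE M21 (GRCm38).

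Counts were analysed with edgeR 4.0.16 (TMM, filterByExpr by genotype with a minimum count of 10 and total of 15, robust quasi-likelihood F test, Benjamini-Hochberg over 19736 genes, threshold 0.05) in 1 fit of all libraries with genotype as the only term. DESeq2 1.42.0, limma 3.58.1 voom with quality weights, other scalings and filters, covariates and left-out libraries were alternatives. SE is the log2 fold change divided by the root of F. The procedures were run on simulated data. The simulated levels for the gap measure had a smaller spread than these IDs, whose pooled SD of log2 CPM within genotypes was 0.307 to 0.746. That run therefore does not show how the gap measure does at their spread. Columns not mapped to a sample numbered 0. Labels give 4 mice per genotype as separate samples.

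The members and gene lists were chosen with earlier results of these data known. Named genes were the members, up to 2 genes per list with the smallest p, up to 3 most alike genes, the tested neighbours on either side and overlapping genes. Promoters came from RefSeq (GRCm38.p6). At 36795376 to 61886313 counts per library, Poisson counting error of the 8 IDs averaged 1.48% to 7.44% within a genotype. The spread (SD over mean) was below it for Fbxo34 in WT (2.37% against 3.47%) and within 2 times of it for Ttll12 in SOD1G93A (2.91% against 2.63%) and SOD1G93A-Lepob/+ (5.82% against 3.96%), and above that in the other 29 of 32 groups.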

Additional observations from a re-analysis of the deposited data

Results flagged for a closer look

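Each of the 8 IDs was looked at in each of the 4 genotypes for a library far from the other three, by Dixon's ratio of its gap to the range of the group at the 95% limit for 4 samples. Of 32 groups 3 were past the limit, which chance passes in about 1 group of 20. These 3 are genes that had been chosen because leaving out 1 of these libraries called them, so the count restates that choice and tests nothing. For the first ID of Ptp4a1, SOD1G93A-Lepob/+ replicate 3 was at 56.1 CPM and the others of its genotype at 6.82 to 11.1 CPM (ratio 0.913). For Wdr37 the same library was at 24.6 CPM and the others at 7.25 to 8.71 CPM (0.916). For Mbtd1, SOD1G93A replicate 4 was at 36.8 CPM and the others at 8.74 to 9.94 CPM (0.957). The first library is the one with 1756 counts of Y-linked genes and 0 of Xist. Its part in these values was not tested.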

How the results depend on the processing

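The number of the 8 IDs past the threshold was 0 by edgeR in all 6 comparisons, also with other scalings, other filters, a lymph node covariate, both Ptp4a1 IDs summed and the replicate number as a block (0 in each comparison). Of 24 same-numbered pairs of libraries, 5 had deviations correlated over 0.1 and 8 under -0.1. The WT and SOD1G93A pairs had r of 0.412, 0.407, 0.520 and -0.312, and libraries were most like their own number in 10 of 48 cases, so the numbers were not taken as pairs. In SOD1G93A-Lepob/+ against SOD1G93A it was 1 with edgeR on the compared genotypes, 3 with DESeq2, whether fitted to 16 or 8 libraries, 5 with voom (which called 31.7% of all genes), and 2 without Lepob/+ replicate 4 and SOD1G93A-Lepob/+ replicate 3 (0.01% of all genes). Against Lepob/+ it was 1 with DESeq2 on all libraries, 2 on the compared genotypes, 1 with voom and 2 without both libraries. Against WT it was 1 with edgeR on the compared genotypes, 2 and 3 with DESeq2, 2 with voom and 2 without both libraries. In SOD1G93A against WT it was 2 with DESeq2 on the compared genotypes (Kmt5a and Znrf1). Leaving out 1 library at a time, these counts ran from 0 to 0 in Lepob/+ against WT, 0 to 1 in SOD1G93A against WT, 0 to 3, 0 to 2 and 0 to 2 in mice with both mutations against SOD1G93A, Lepob/+ and WT, and 0 to 2 for the interaction.

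The count of IDs with a gap of at least 1 was 0 with both Ptp4a1 IDs summed and ran from 1 to 4 when 1 library was left out (9.89% to 10.7% of all genes), with 4 (Fbxo34, both IDs of Ptp4a1 and Mbtd1) without SOD1G93A-Lepob/+ replicate 3 and 2 without Lepob/+ replicate 4, SOD1G93A replicates 1 or 2, or SOD1G93A-Lepob/+ replicate 2. With 1 library left out, counts of IDs without overlap ran from 0 to 2 in Lepob/+ against WT (0.907% to 5.11% of all genes), 2 to 3 in SOD1G93A against WT (2.05% to 15.5%), and 3 to 4 (7.18% to 40.7%), 2 to 4 (2.35% to 6.78%) and 3 to 5 (3.64% to 12.8%) with both mutations against SOD1G93A, Lepob/+ and WT. Smaller groups overlap less often, so nothing is read from the higher counts. By library total alone 2 IDs did not overlap against SOD1G93A (6.4%). Of 1322 log2 fold changes under an alternative, 1278 moved by less than the spread within genotypes and 22 took the other sign, among them the first ID of Ptp4a1 when summed with the second. The sum of both Ptp4a1 IDs and the alternatives for counts without overlap and for the gap ratio were chosen after seeing the data. The cause of these changes was not tested. Scaling by library total alone moved the median log2 fold change of all genes by -0.16 in Lepob/+ against WT and by 0.11 for the interaction, where no ID changed sign, and by 0.08 in SOD1G93A-Lepob/+ against Lepob/+, where Kmt5a went from -0.12 to 0.12. With 4 libraries per genotype, 1 library decides the edgeR calls of Fbxo34, Ptp4a1, Wdr37 and Mbtd1.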
